A study of Arabidopsis thaliana with 4 samples.

Results

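Aux/IAA genes encode the repressors that hold auxin-responsive transcription off, and they were examined here together with early auxin response genes of the GH3 and SAUR families. The 33 genes were taken by locus as members of these families, by a rule that uses no measured value, although other results of these data were known when they were picked: 28 Aux/IAA genes, the 4 GH3 genes GH3.1, GH3.2, GH3.3 and GH3.5, and SAUR15. All 33 were present among the 33059 features of the expression table. RNA sequencing was done on Arabidopsis thaliana rosette leaves at a plant age of 28 days. Leaves of plants that express ERF4 from the constitutive cauliflower mosaic virus 35S promoter (Pro35S:ERF4, called OE) were set against leaves of wild-type plants (WT), with 2 libraries per genotype. The labels do not say how many transgenic lines were used or whether replicate libraries were made from different plants. The p-values therefore cover the variation among these 4 libraries only, and that variation may be technical. The accession of the plants is not given in the sources used here.

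Auxin is perceived by F-box proteins of the TIR1/AFB family, which bind Aux/IAA proteins through a short degron and mark them for destruction. Intact Aux/IAA proteins bind auxin response factors (ARFs) and recruit the corepressor TOPLESS. When they are degraded, ARFs activate early target genes, which include many Aux/IAA genes themselves, GH3 genes, whose enzymes join auxin to amino acids, and SAUR genes, which promote cell expansion. ERF4 is an ethylene response factor that carries a repression motif, and auxin and ethylene are known to act on each other's synthesis and response.

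Values were in TPM, which corrects for transcript length, so that levels of different genes can be set side by side. Read numbers cannot be recovered from TPM. Library depth is thus unknown and counting error could not be estimated. ERF4 itself had 24.5 and 28.8 TPM in the OE libraries, against 9.68 and 10.6 TPM in the WT libraries, in the direction of the labels. The log2 fold change of ERF4 was 1.31 (SE 0.351) and missed the threshold of 0.05 (limma adjusted p = 0.381). WT replicate 1 stood apart in level, with the lowest value of the 4 libraries for 42.9% of tested features. Across tested features the WT libraries correlated with each other at r = 0.918. Each correlated more with OE replicate 1 (0.933 for WT replicate 1 and 0.946 for WT replicate 2). OE replicate 2 correlated at 0.903 with WT replicate 1, the lowest of all pairs, at 0.920 with WT replicate 2 and at 0.942 with OE replicate 1. Leaf markers were abundant in every library: the summed TPM of 5 mesophyll markers was 21315 and 25977 in OE, against 40792 and 14633 in WT. The 4 seed markers examined were lower in both OE libraries than in both WT libraries, with sums of 0.51 and 4.27 TPM in OE, against 51.0 and 52.7 TPM in WT, and EM1 was listed at 0 in OE replicate 1. Of these, CRU3, a seed storage protein gene, passed the threshold (log2 fold change -3.92, SE 0.481, limma adjusted p = 0.0182), beside 0.09% of all tested features. With no filter on low values, quantile normalization or median-ratio scaling, no feature passed, CRU3 included. The 6 markers of meristem and dividing cells summed to 91.3 and 62.3 TPM in OE, against 96.6 and 101 TPM in WT. Of these, STM, KNAT1 and CUC2 (too low to be tested) were lower in both OE libraries than in both WT libraries, and CYCB1;1, CYCD3;1 and KNOLLE overlapped. The sums of 6 vascular markers were 116 and 127 TPM in OE, against 124 and 133 TPM in WT. Among the vascular markers, PXY, WOX4 and XCP1 were lower in both OE libraries, and SUC2, APL and ATHB8 overlapped. This lower order was found in 14.2% of all tested features. Markers of other organs were low, with sums of 13.75 and 10.05 TPM in OE, against 11.9 and 10.8 TPM in WT, for 5 root markers, and 0.65 and 4.40 TPM in OE, against 1.19 and 4.65 TPM in WT, for 4 flower markers. The flower marker AP3 was listed at 0 in WT replicate 1. The sums of 3 guard cell markers were 72.2 and 66.3 TPM in OE, against 73.9 and 90.8 TPM in WT. In whole leaves, fewer cells of a type and less RNA per cell cannot be told apart, and the part of these markers in the results that follow was not tested.

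The Aux/IAA transcript pool of the leaf was dominated by a few genes in both genotypes. Summed over the 28 genes, Aux/IAA transcripts came to 1724 and 1984 TPM in the OE libraries, against 1236 and 1851 TPM in the WT libraries. The OE libraries overlapped WT replicate 2 in this sum, and WT replicate 1 was the lowest of the 4. By mean over the libraries, IAA7 (AT3G23050) had 313 TPM, IAA2 (AT3G23030) 299 TPM, IAA16 (AT3G04730) 256 TPM, IAA9 (AT5G65670) 210.4 TPM and IAA4 (AT5G43700) 122 TPM. These 5 genes made up 71.3% and 74.2% of the Aux/IAA pool in OE, against 61.1% and 72.6% in WT. IAA7, known as AXR2, and its relatives IAA14, IAA16 and IAA17 form a branch of the family known for stabilising mutations that make plants auxin-resistant. A further 13 Aux/IAA genes averaged between 10 and 100 TPM, 8 between 1 and 10 TPM, and IAA6 and IAA33 under 1 TPM. IAA15 (AT1G80390), which is outside the set of 28, was listed at 0 in both OE libraries and at 0.14 TPM in both WT libraries.

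**Figure D1:**
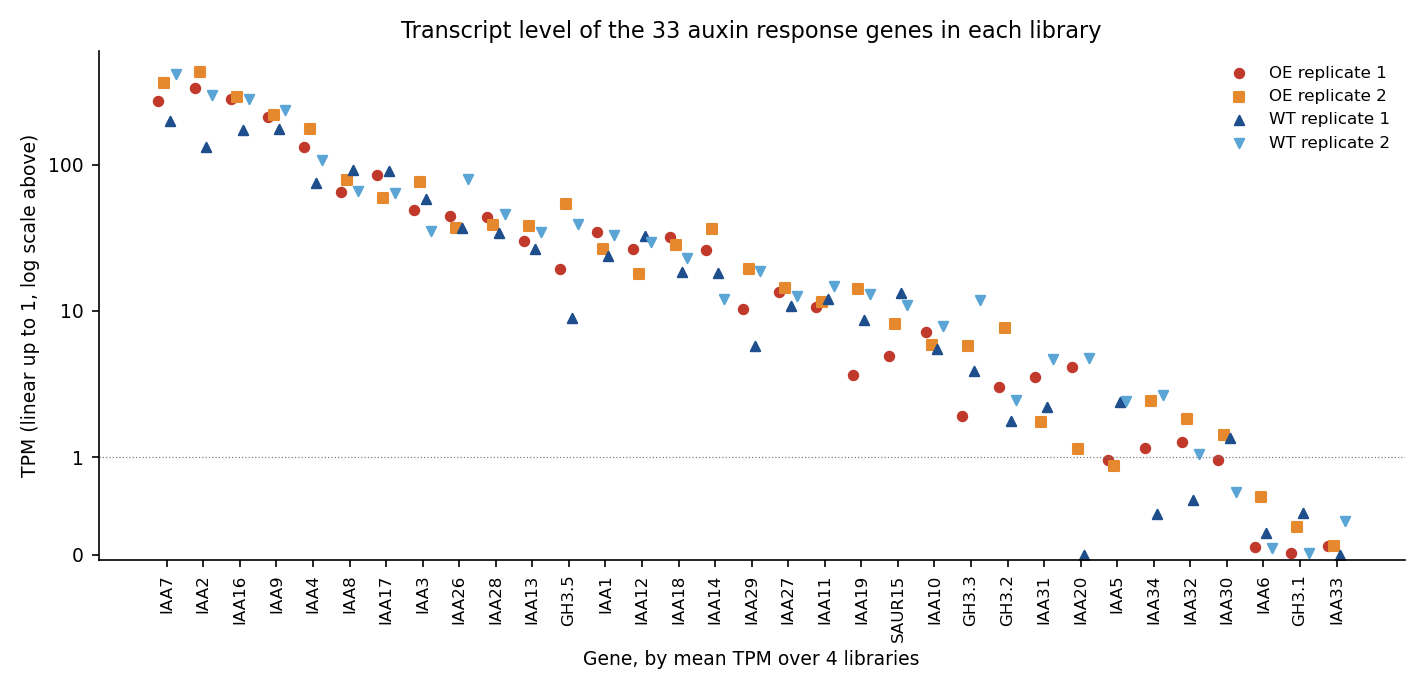
TPM of the 33 genes in each library, ordered by mean over the 4 libraries; the vertical axis is linear up to 1 TPM and logarithmic above, circles and squares are OE libraries and triangles WT libraries. Levels span from under 1 TPM for IAA6, GH3.1 and IAA33 to over 100 TPM for IAA7, IAA2, IAA16, IAA9 and IAA4, and for most genes the libraries of the 2 genotypes are intermixed.

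**Figure D2:**
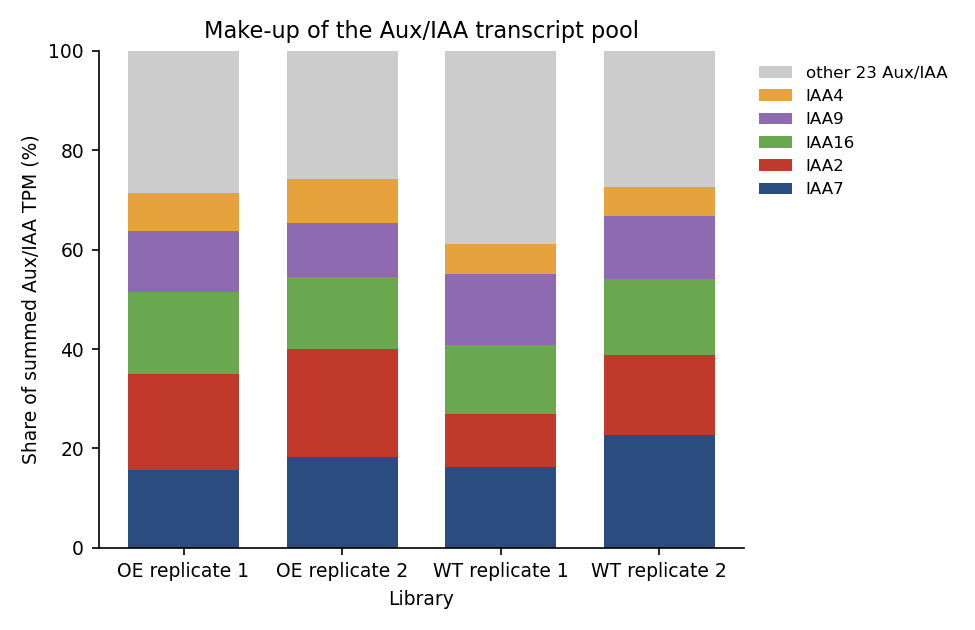
Share of the summed Aux/IAA TPM (vertical axis, percent) taken by each of the 5 most abundant Aux/IAA genes and by the other 23, with one bar per library. IAA2 takes 19.3% and 21.7% in the OE libraries, against 10.7% and 16.2% in the WT libraries.

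IAA20 and IAA30 to IAA34 are known to lack the canonical degron or to carry an altered one, so that the TIR1/AFB route does not act on them as on other family members. All 6 were scarce, with no value above 4.79 TPM in any library. Their sums were 11.2 and 8.65 TPM in OE, against 4.54 and 14.2 TPM in WT, which overlap. The mean levels of the other 22 genes had a median of 30.95 TPM. IAA20 (AT2G46990) had 4.15 and 1.14 TPM in OE, against 4.79 TPM in WT replicate 2 and a listing at 0 in WT replicate 1, which can be a failed estimate. IAA32 (AT2G01200), which with IAA34 is known for a role in the apical hook, had 1.27 and 1.83 TPM in OE, against 0.56 and 1.06 TPM in WT, without overlap between genotypes.

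No member passed the test between the genotypes. Features were tested where their mean over the 4 libraries was at least 1 TPM, which kept 30 of the 33 members and left out IAA6, IAA33 and GH3.1. Of these 30, 0 passed an adjusted p of 0.05 (limma on log2(TPM + 1), Benjamini-Hochberg over 20010 features), beside 0.09% of all tested features. At an unadjusted limma p under 0.05 there was 1 member, IAA14, beside 5.3% of all tested features. Both OE libraries lay above both WT libraries in 8 members, where this order was found in 13.7% of all tested features. Both lay below in 4 members, beside 14.2% of features. Counted in either direction, this was 40% of the members tested, beside 27.9% of all tested features. The 12 genes are described first, by role, then those that overlapped.

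**Figure D3:**
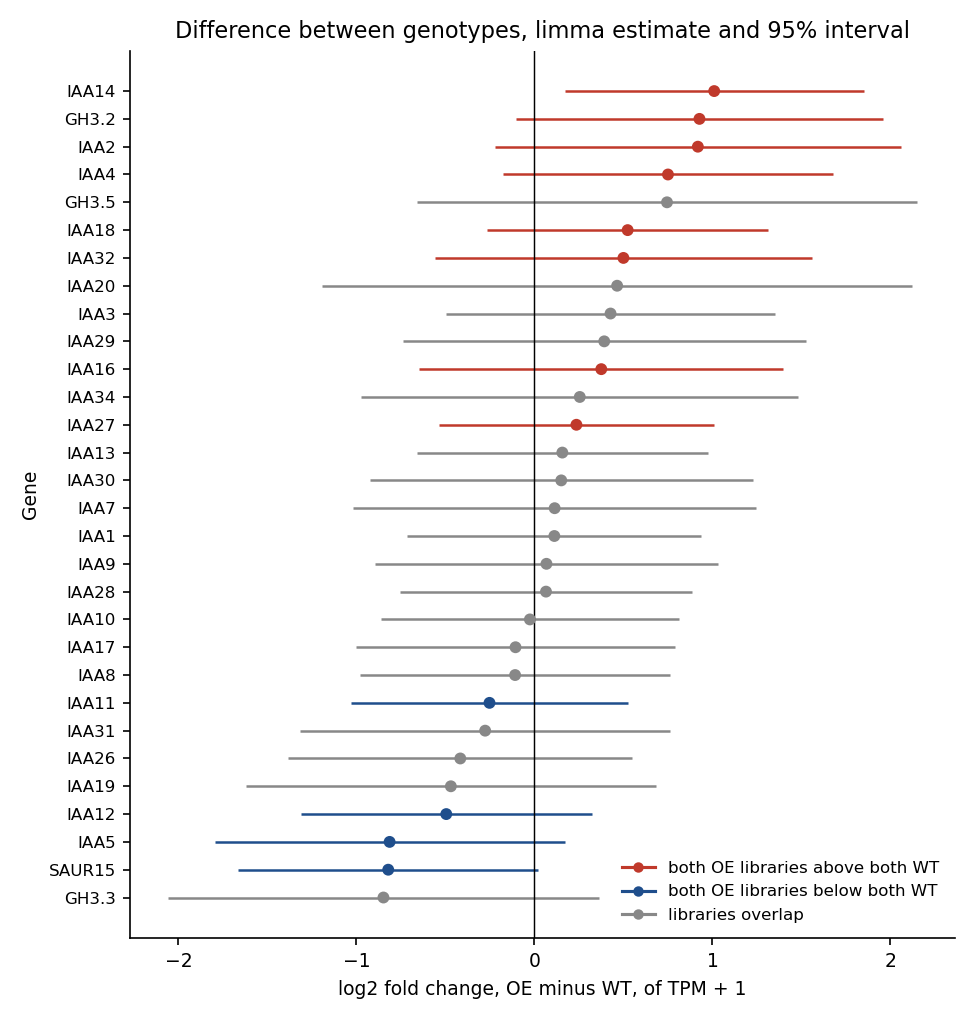
Log2 fold change of TPM + 1 (horizontal axis, OE minus WT) of the 30 tested genes with the 95% interval from limma; red marks genes with both OE libraries above both WT libraries, blue both below, and grey an overlap. The interval of IAA14 (0.17 to 1.85) lies above 0, and those of the other 29 genes include 0.

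IAA14 (AT4G14550), named SOLITARY-ROOT for the loss of lateral roots in its stabilised mutant, had 26.2 and 36.2 TPM in OE, against 18.1 and 12.0 TPM in WT. The OE mean was 2.07 times the WT mean. The log2 fold change was 1.01 (SE 0.381, limma adjusted p = 0.730), and it stayed between 0.73 and 1.29 when any library was left out. IAA14 was unlike most members in WT, where replicate 1 exceeded replicate 2.

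IAA2, an auxin-inducible gene, had 333 and 429.6 TPM in OE, against 133 and 300.4 TPM in WT. The highest WT library was close to the lowest OE library, and the WT libraries themselves differed by a factor of 2.26. The log2 fold change was 0.92 (SE 0.516, limma adjusted p = 1.0), with a value of 0.33 without WT replicate 1 and 1.503 without WT replicate 2. IAA4, another early auxin-induced member, had 132 and 174 TPM in OE, against 74.9 and 107 TPM in WT. Its log2 fold change of 0.75 (SE 0.419, limma adjusted p = 1.0) had a range of 0.49 to 1.01 when any library was left out. As shares of the Aux/IAA pool, IAA2, IAA4, IAA14 and IAA32 were larger in both OE libraries than in either WT library. Shares of IAA5, IAA9, IAA10, IAA11, IAA12 and IAA26 were smaller in both OE libraries. The shares are the same TPM values over a common total, so they are not separate evidence. For IAA4 the shares were 7.64% and 8.78% in OE, against 6.06% and 5.79% in WT.

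IAA18 (AT1G51950), whose stabilised mutant is known for defects in embryo patterning, had 32.0 and 28.2 TPM in OE, against 18.5 and 22.99 TPM in WT, a ratio of means of 1.45. IAA27 (AT4G29080), a phytochrome-associated member, had 13.5 and 14.4 TPM in OE, against 10.75 and 12.7 TPM in WT. IAA16 had 283 and 288 TPM in OE, against 172 and 281 TPM in WT. These 3 genes did not overlap between the genotypes, but for IAA16 the gap between OE replicate 1 and WT replicate 2 was small beside the difference between the WT libraries. Their log2 fold changes were 0.52 (SE 0.358) for IAA18, 0.24 (SE 0.351) for IAA27 and 0.38 (SE 0.463) for IAA16, and 0.50 (SE 0.479) for IAA32, none past the threshold. Without WT replicate 1 the values were 0.02 for IAA16, 0.12 for IAA27, 0.37 for IAA18 and 0.30 for IAA32, and without WT replicate 2 they were 0.73, 0.35, 0.67 and 0.70 in the same order.

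In the other direction, IAA5 (AT1G15580) had 0.97 and 0.91 TPM in OE, against 2.40 and 2.42 TPM in WT. The OE mean was 0.39 times the WT mean, and the libraries of each genotype were close to each other. At this low level the log2(TPM + 1) scale understates a change, and the log2 fold change on it was -0.81 (SE 0.445, limma adjusted p = 1.0). It was -0.84 to -0.79 when any library was left out. IAA5, IAA6 and IAA19 are known to act together on aliphatic glucosinolate levels under drought. Whether the 3 shared a pattern here cannot be told, as IAA6 was too low to be tested and IAA19 overlapped. IAA6 (AT1G52830) had 0.08 and 0.59 TPM in OE, against 0.22 and 0.07 TPM in WT. IAA19 (AT3G15540), known as MSG2 for its part in tropic bending, had 3.65 and 14.1 TPM in OE, against 8.66 and 12.95 TPM in WT, so that the OE libraries spanned both WT libraries.

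IAA12 (AT1G04550), also called BODENLOS, is the partner of the response factor ARF5 in the embryo and had 26.4 and 17.9 TPM in OE, against 32.75 and 29.5 TPM in WT. IAA11 (AT4G28640) had 10.7 and 11.5 TPM in OE, against 12.0 and 14.8 TPM in WT. The log2 fold changes were -0.50 (SE 0.370) for IAA12 and -0.25 (SE 0.353) for IAA11, neither past the threshold. They moved to -0.76 without OE replicate 1 and -0.23 without OE replicate 2 for IAA12, and to -0.39 without WT replicate 1 and -0.11 without WT replicate 2 for IAA11. IAA13 (AT2G33310), the closest relative of IAA12, overlapped, with 30.2 and 38.2 TPM in OE, against 26.55 and 34.8 TPM in WT.

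GH3 genes are early auxin targets whose enzymes lower free auxin, and 3 of the 4 had a mean above 1 TPM. GH3.2 (AT4G37390) had 3.03 and 7.62 TPM in OE, against 1.77 and 2.47 TPM in WT. Its log2 fold change was 0.93 (SE 0.468, limma adjusted p = 1.0), with 0.38 without OE replicate 2 and 1.48 without OE replicate 1. GH3.3 (AT2G23170) had 1.90 and 5.73 TPM in OE, against 3.89 and 11.9 TPM in WT. Its OE mean was 0.482 times the WT mean, but the libraries overlapped and the log2 fold change of -0.85 (SE 0.549) did not pass. It was -0.15 without WT replicate 2, -0.24 without OE replicate 1, -1.46 without OE replicate 2 and -1.55 without WT replicate 1. GH3.5 (AT4G27260), known to act on both auxin and salicylic acid, had 19.4 and 53.8 TPM in OE, against 8.93 and 39.0 TPM in WT. Libraries of the same genotype differed in GH3.5 by a factor of 2.77 in OE and 4.37 in WT. Its log2 fold change of 0.74 (SE 0.637) turned to -0.26 without WT replicate 1. GH3.1 (AT2G14960) had 0.02 and 0.28 TPM in OE, against 0.43 and 0.02 TPM in WT.

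SAUR15 (AT4G38850), also known as SAUR-AC1, belongs to a family of small proteins that promote cell expansion. It had 4.92 and 8.16 TPM in OE, against 13.2 and 10.9 TPM in WT, an OE mean of 0.542 times the WT mean. The log2 fold change was -0.82 (SE 0.382, 95% interval -1.67 to 0.02, limma adjusted p = 0.955), and it ranged from -1.14 to -0.51 when any library was left out. Its direct neighbours on the chromosome, picked with their values known, were likewise lower in each OE library than in each WT library. This order was found in 14.2% of all tested features. SAUR14 (AT4G38840) had 30.0 and 33.5 TPM in OE, against 41.05 and 36.5 TPM in WT. SAUR16 (AT4G38860) had 13.9 and 38.9 TPM in OE, against 60.55 and 45.9 TPM in WT. SAUR13 (AT4G38825), whose locus number lies close by, overlapped, with 6.78 and 13.7 TPM in OE, against 9.43 and 10.4 TPM in WT. SAUR genes that lie side by side can be similar in sequence, so the assignment of reads among them is uncertain.

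The remaining tested members overlapped between the genotypes. Their log2 fold changes, GH3.3 and GH3.5 included, ran from -0.85 for GH3.3 to 0.74 for GH3.5. IAA7 had 270.4 and 363 TPM in OE, against 200.2 and 419 TPM in WT, so that both OE values lay between the WT values. IAA9 had 211 and 218 TPM in OE, against 176 and 237 TPM in WT, the same pattern. The log2 fold changes were 0.11 (SE 0.513, 95% interval -1.02 to 1.25) for IAA7 and 0.07 (SE 0.436, 95% interval -0.89 to 1.03) for IAA9. Intervals of this width leave room for a 2-fold difference in either direction for IAA7.

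IAA8 (AT2G22670), a close relative of IAA9, had 65.2 and 79.1 TPM in OE, against 91.7 and 65.5 TPM in WT. IAA17 (AT1G04250), known as AXR3, had 84.6 and 59.2 TPM in OE, against 90.6 and 64.2 TPM in WT. IAA3 (AT1G04240), known as SHY2 and as a point where cytokinin acts on auxin response, had 49.3 and 75.8 TPM in OE, against 58.3 and 35.0 TPM in WT. In IAA8, IAA17 and IAA3, WT replicate 1 was the higher WT library, the reverse of the more abundant IAA7, IAA2, IAA16 and IAA9.

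IAA26 (AT3G16500), a phytochrome-associated member, had 44.5 and 36.7 TPM in OE, against 36.65 and 80.1 TPM in WT, where WT replicate 2 stood alone. IAA28 (AT5G25890), known for its role in the root, had 44.1 and 38.8 TPM in OE, against 34.0 and 45.9 TPM in WT. IAA29 (AT4G32280), known as a target of the phytochrome-interacting factors in shade, had 10.35 and 19.2 TPM in OE, against 5.77 and 18.7 TPM in WT. As for GH3.5, libraries of the same genotype lay far apart in IAA29, by a factor of 1.85 in OE and 3.23 in WT. IAA1 (AT4G14560) had 34.5 and 26.6 TPM in OE, against 23.7 and 32.9 TPM in WT, and IAA10 (AT1G04100) had 7.15 and 5.82 TPM in OE, against 5.48 and 7.89 TPM in WT.

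IAA30, IAA31, IAA33 and IAA34, all scarce, overlapped as well. IAA31 (AT3G17600) had 3.54 and 1.74 TPM in OE, against 2.21 and 4.69 TPM in WT. IAA34 (AT1G15050) had 1.15 and 2.44 TPM in OE, against 0.42 and 2.66 TPM in WT. IAA30 (AT3G62100) had 0.97 and 1.41 TPM in OE, against 1.35 and 0.64 TPM in WT, and IAA33 (AT5G57420) had 0.09 TPM in both OE libraries, against a listing at 0 and 0.35 TPM in WT. With the depth unknown, the order of libraries at these low levels was not read further. The same limit holds for IAA5 and IAA32, with means of 1.675 and 1.18 TPM, although they were counted among the genes without overlap.

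Differences between genotypes were set beside those between libraries of the same genotype. The 2 measures are unlike, as a fold change compares means of 2 libraries, which vary less than single libraries. In 21 of the 30 tested members the log2 fold change between OE and WT was smaller in size than the difference between the 2 WT libraries. For this reason most genes would have that order without any genotype effect, and its share over all features was not counted. The median size of the log2 fold change over the tested members was 0.404, beside a median difference of 0.383 between the OE libraries and 0.501 between the WT libraries. Over all tested features these medians were 0.240, 0.332 and 0.476. WT replicate 1 was the lowest of the 4 libraries for 18 of the 30 members, beside 42.9% of all tested features. It was the highest for 4 members, beside 16.1% of features. OE replicate 2 was the highest for 13 of the 30, beside 18.7% of features. The members' direction depended on single libraries, and the median of all tested features, given below, changed sign with them too. Of the 30, 19 had a positive log2 fold change with all libraries, beside 48.3% of all tested features. The number of members was 12 when WT replicate 1 was left out and 21 when WT replicate 2 was, and 18 when either OE library was. For these fits the share over all features was not counted, so the shift is not particular to the members. The median over the 26 tested Aux/IAA genes was 0.13 with all libraries, beside -0.02 over all tested features. It was -0.13 without WT replicate 1, where the median of all features was -0.16, and 0.31 without WT replicate 2, where that of all features was 0.14. Without OE replicate 1 it was 0.29, beside -0.09 over all features, and without OE replicate 2 it was 0.095, beside 0.065.

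Aux/IAA genes lie side by side in 3 places in the genome, IAA2 next to IAA7, IAA14 next to IAA1 and IAA3 next to IAA17, with no annotated protein-coding locus between them. Ratios within a library do not depend on how that library was scaled. The ratio of IAA2 to IAA7 was 1.23 and 1.18 in the OE libraries, against 0.664 and 0.718 in the WT libraries. The libraries of each genotype were close together, although the levels of both genes differed by more than 2-fold between the WT libraries. The ratio of IAA1 to IAA14 was 1.32 and 0.736 in OE, against 1.31 and 2.74 in WT, and that of IAA17 to IAA3 was 1.72 and 0.781 in OE, against 1.55 and 1.83 in WT, both with overlap. For the GH3 genes, a ratio chosen after the values were seen, GH3.5 over GH3.3, was 10.2 and 9.38 in OE, against 2.30 and 3.27 in WT. Such separation was common among the members: in 165 of 406 pairs of tested members above 0 in every library (40.6%), the ratios of the OE libraries did not overlap those of the WT libraries.

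**Figure D4:**
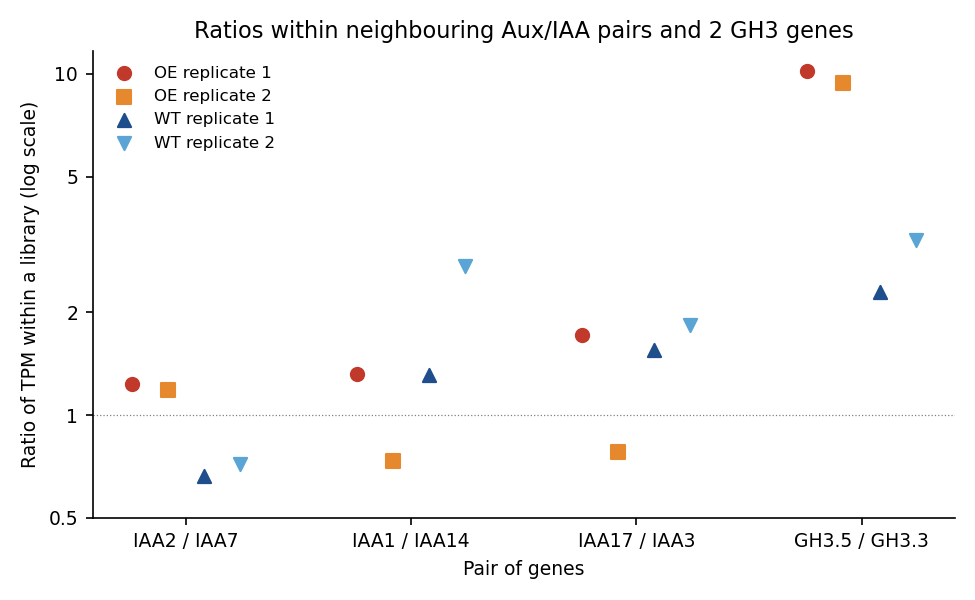
Ratio of TPM between 2 genes within each library (vertical axis, log scale) for the 3 neighbouring Aux/IAA pairs and for GH3.5 over GH3.3; circles and squares are OE libraries and triangles WT libraries. The ratios of IAA2 to IAA7 and of GH3.5 to GH3.3 are higher in both OE libraries than in both WT libraries, and the other 2 pairs overlap.

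The wider auxin pathway was read from lists of 143 further genes. Of 112 tested, 0 passed the threshold (limma, Benjamini-Hochberg), beside 0.09% of all tested features. At an unadjusted limma p under 0.05 there were 7 of the 112, beside 5.3% of all tested features. Both OE libraries lay above both WT libraries in 17 of the 112 genes and below in 20, beside 13.7% and 14.2% of all tested features. Their median log2 fold change was -0.04, beside -0.02 over all tested features.

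Among the 6 TIR1/AFB receptors, which detect auxin, AFB1 had 18.7 and 23.9 TPM in OE, against 10.2 and 14.2 TPM in WT, and TIR1 had 39.45 and 34.95 TPM in OE, against 27.5 and 28.75 TPM in WT. Neither overlapped between the genotypes, but the 2 were named for having the smallest p in their list. Of the 6 receptors, 3 were higher in each OE library than in each WT library and 3 overlapped. The higher order was found in 13.7% of all tested features. Of the 15 ARFs, the DNA-binding partners of Aux/IAA proteins, 6 were lower in each OE library than in each WT library and 1 was higher, where 14.2% and 13.7% of all tested features had these orders. ARF8, known for its role in organ growth, had 16.7 and 11.1 TPM in OE, against 21.3 and 22.6 TPM in WT, and ARF11 had 3.01 and 3.55 TPM in OE, against 6.69 and 4.50 TPM in WT. The corepressor TPL had 57.1 and 54.1 TPM in OE, against 35.6 and 46.8 TPM in WT, while its relative TPR1 had 19.7 and 26.9 TPM in OE, against 15.5 and 23.96 TPM in WT, with overlap.

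In auxin synthesis the 2 genes with the smallest p lay in opposite directions. YUC5, a flavin monooxygenase of the last step, had 7.26 and 7.77 TPM in OE, against 2.49 and 1.84 TPM in WT (log2 fold change 1.43, SE 0.389, limma adjusted p = 0.392). TAA1, the aminotransferase of the step before, had 8.08 and 12.1 TPM in OE, against 24.6 and 14.7 TPM in WT (log2 fold change -0.88, SE 0.395, limma adjusted p = 0.928). Both genes kept the genotypes apart, and for TAA1 the nearest OE and WT libraries were closer than the WT libraries were to each other. They were picked by p, and the other 6 of the 8 tested synthesis genes overlapped. Over all tested features, 27.9% did not overlap. Among transporters, PIN5, which acts at the endoplasmic reticulum, had 0.83 and 0.61 TPM in OE, against 3.46 and 2.27 TPM in WT. PIN2, known from the root, had 12.9 and 8.67 TPM in OE, against 6.59 and 7.30 TPM in WT.

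Among further enzymes that inactivate auxin, GH3.9 had 2.71 and 0.81 TPM in OE, against 17.0 and 4.68 TPM in WT (log2 fold change -1.97, SE 0.572, limma adjusted p = 0.450). GH3.6 had 26.5 and 77.8 TPM in OE, against 16.5 and 34.2 TPM in WT, with overlap. GH3.17, named with its value known, had 23.7 and 32.1 TPM in OE, against 35.99 and 36.3 TPM in WT, without overlap. Of the GH3 genes given here that were tested, GH3.3, GH3.9 and GH3.17 thus had lower means in OE and GH3.2, GH3.5 and GH3.6 higher means, none past the threshold. The conjugate hydrolases ILR1 (12.4 and 9.73 TPM in OE, against 6.87 and 17.1 TPM in WT) and IAR3 (41.9 and 28.2 TPM in OE, against 26.2 and 70.2 TPM in WT) overlapped, with both OE values between the WT values for each gene. LBD16, a target of ARFs known from lateral root formation, had 1.72 and 3.65 TPM in OE, against 1.06 and 1.72 TPM in WT.

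Of 59 tested SAUR genes other than SAUR15, 9 had both OE libraries above both WT libraries and 8 below, close to the 13.7% and 14.2% of all tested features. SAUR71 had 9.70 and 9.60 TPM in OE, against 4.78 and 1.98 TPM in WT (log2 fold change 1.36, SE 0.422, limma adjusted p = 0.508). SAUR36, known to act in leaf senescence, had 27.4 and 24.1 TPM in OE, against 4.81 and 16.9 TPM in WT (log2 fold change 1.39, SE 0.494, limma adjusted p = 0.652). The value of SAUR36 was 0.58 without WT replicate 1, the library with the lowest level.

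**Figure D5:**
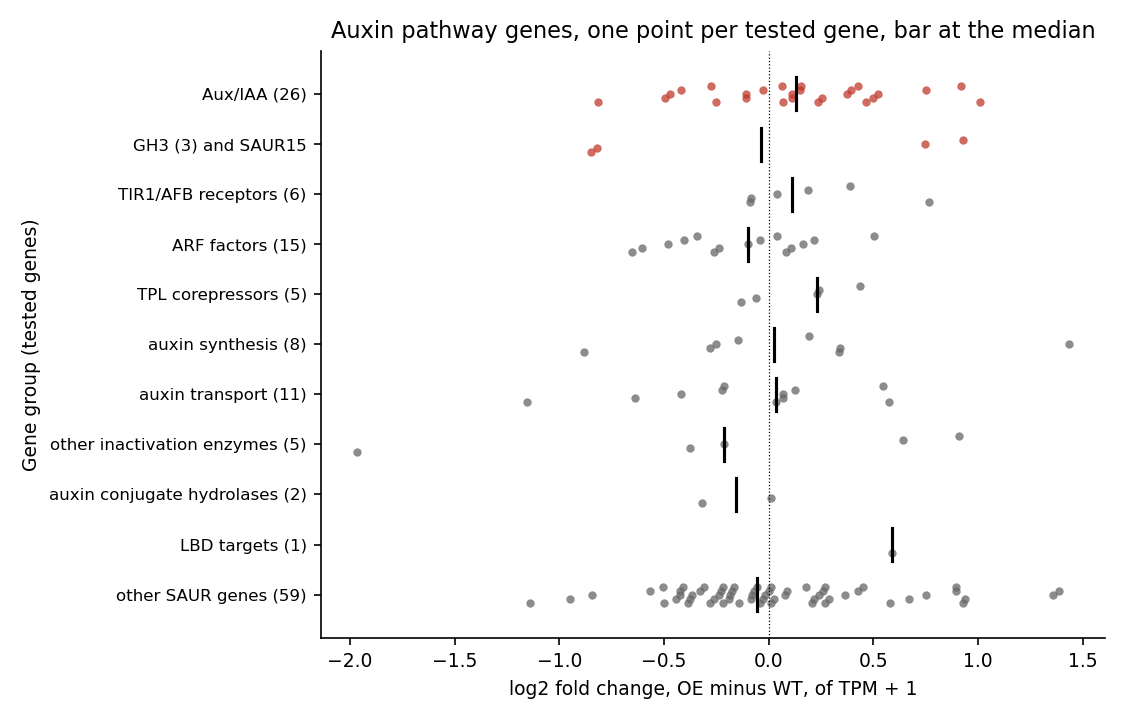
Log2 fold change of TPM + 1 (horizontal axis, OE minus WT) of every tested auxin gene by group, with a black bar at each group's median; the Aux/IAA, GH3 and SAUR15 genes are in red and the other pathway groups in grey. The Aux/IAA median is 0.13 and values in every group with more than 2 tested genes lie on both sides of 0.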

How the data were processed

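RNA from rosette leaves was sequenced, with 2 libraries each for OE and WT. The values are TPM, deposited by the authors as 1 table of genes by libraries. The submitters' processing notes name fastp, HISAT and RSEM but neither versions nor roles. Genome build and annotation were not given in the sources used here, so no coordinates or sequences are printed. The authors' mean TPM columns were not used. WT replicate 2 follows the label that ties its column to the sample. Depth is unknown.

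Members were matched by locus and all 33 carried the same name in the RefSeq gene table (assembly TAIR10.1), which also gave names and neighbours. The members and lists were chosen with earlier results of these data known. Of 145 pathway genes 2 were left out because the table lacks their name. A planned split by degron letters in the protein was not run, and the genes without a canonical degron were named from general knowledge.

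The 20010 features that averaged 1 TPM or more were fitted as log2(TPM + 1) with limma 3.58.1 in R 4.3.3 (variance trend, genotype as the only term, two-sided). Calls needed a Benjamini-Hochberg adjusted p under 0.05 over all features. The fit had 2 residual degrees of freedom, to which the prior contributed 8.73 more, so spread comes largely from other genes. An exact permutation test of 2 against 2 libraries cannot give a two-sided p below 0.333, so none was used.

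Values in every library were given for all members. The plan had asked for this only for members whose libraries did not overlap between genotypes and the 5 with the highest mean. In each pathway list the 2 genes with the smallest p were named, as none was called. The alternatives tried changed the pseudocount (0.1 or 5), the filter (none, or 5 TPM on average), the scaling (quantile, median ratio, or without organelle genes) and the variance prior (robust, or with no trend), added a replicate block, or left out each library. Figures were made with matplotlib 3.10.9 under Python 3.11.15.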

Additional observations from a re-analysis of the deposited data

How the results depend on the processing

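No member was called in any fit run: all 14 alternatives gave 0, with 0 to 3 members at an unadjusted limma p under 0.05. Over all features, 18 calls became 0 with no filter, quantile normalization or median-ratio scaling, 63 with a mean of at least 5 TPM, 108 with a robust prior and 338 with the replicate block, and 0 to 147 without single libraries, where the lone library of a genotype is assumed to vary like the other genotype. Same-numbered libraries deviated together at r = 0.0325, and the labels give the number no meaning, so the block pairs libraries by number alone. With it 1 pathway gene, GH3.9 (-1.97), was called, and in no other fit was a pathway gene called. Leaving out a library moved the Aux/IAA median between -0.13 and 0.31 and the count of members without overlap, 12 with all libraries, between 16 and 25, since fewer libraries overlap less by construction. The sign turned with quantile normalization for IAA9 (-0.0081) and IAA10 (0.012) and with a pseudocount of 5 for ILR1 (-0.015). Leaving out a library turned the sign for 16 of the 30 tested members and for 3 of the 17 pathway genes named by rule, whose lowest and highest log2 fold changes were -0.12 and 0.34 for IAA1, -0.42 and 0.64 for IAA7, -0.35 and 0.13 for IAA8, -0.15 and 0.28 for IAA9, -0.25 and 0.20 for IAA10, -0.033 and 0.35 for IAA13, -0.36 and 0.15 for IAA17, -1.32 and 0.38 for IAA19, -0.80 and 1.73 for IAA20, -0.97 and 0.14 for IAA26, -0.15 and 0.28 for IAA28, -0.38 and 1.16 for IAA29, -0.11 and 0.41 for IAA30, -0.69 and 0.14 for IAA31, -0.43 and 0.94 for IAA34, -0.26 and 1.75 for GH3.5, -1.01 and 0.38 for IAR3, -0.055 and 0.54 for TPR1 and -0.59 and 0.61 for ILR1. The cause was not tested. With 2 libraries per genotype and unknown depth, the test separated no member's difference from the spread between libraries. That spread was taken largely from other genes, also for IAA5, whose own libraries were close to each other within each genotype.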
